A study of Mus musculus with 36 samples.

Results

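Wfs1, Fibcd1, Pou3f1, Mpped1 and Man1a are 5 of the 24421 gene symbols measured in 36 RNA sequencing libraries of mouse hippocampus. They were chosen by symbol as known markers of CA1 pyramidal neurons, not by a rule on their values, though earlier results of these data were known. All 5 passed the filter on low values in all 4 comparisons. CA1 is the output field of the hippocampal circuit: its pyramidal neurons receive the Schaffer collaterals of CA3 and project to the subiculum and the cortex. Dentate granule cells, CA3 and CA2 pyramidal neurons and CA1 neurons each express their own set of genes, so that such genes serve as regional markers in bulk tissue. A bulk library cannot tell fewer cells of a type from less RNA per cell.

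C57BL/6 mice made up 3 groups: young at 8 months, old at 18 months, and old at 18 months with a nanoligomer. Mice of 4 months made up the others: APP/PS1 mice, which carry human amyloid transgenes, APP/PS1 mice with a nanoligomer, and non-carrier littermates. A nanoligomer is a short antisense molecule, and the series names NF-kB and NLRP3, both parts of inflammatory signalling, as its targets. Each of the 6 groups had 3 females and 3 males. The labels call every sample hippocampus. The sources used here name no transgenic line or promoter, no dose or duration, and no vehicle for the untreated mice. Nothing in the labels ties libraries to separate litters or days, and they do not say that each library is a separate mouse, so p-values measure the spread between these libraries, which may be partly technical.

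Of the 36 libraries, 35 had 27.6 to 46.3 M reads and reads for 17358 to 19284 genes. Treated APP/PS1 female 3 had 0.913 M reads and was left out for its low depth. Levels are in CPM, counts per M recovered reads, and fold changes are differences of log2 (normalized count + 1), with sex as a term in the fit. All 9 dentate gyrus markers had reads in every library used. Of the 10 CA3 and CA2 markers, 1 had 0 reads in at least 1 library of treated old mice. The other CA3 and CA2 markers had reads in every library used. So had the markers of neocortex, striatum and thalamus, which border the hippocampus or lie near it. The summed striatum markers ran from 179 to 2523 CPM and the summed thalamus markers from 85.7 to 1314 CPM over the 35 libraries, so libraries differed widely in these markers.

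Per kb of exon, the mean level over 35 libraries was highest for Mpped1 with 63.3 CPM per kb, followed by Wfs1 with 51.6, Fibcd1 with 21.6, Pou3f1 with 15.3 and Man1a with 3.43. Mpped1 encodes a metallophosphoesterase domain protein of the brain and lies on the plus strand of chr15:83779467-83858494. Wfs1 encodes wolframin, a membrane protein of the endoplasmic reticulum that is mutated in Wolfram syndrome, and lies on the minus strand of chr5:36966104-36989205. Fibcd1 encodes a membrane receptor with a fibrinogen domain that binds acetylated sugars, and lies on the minus strand of chr2:31813290-31846005. Pou3f1 encodes a POU domain transcription factor, also called Oct6, on the plus strand of chr4:124656807-124660655. Man1a encodes a Golgi alpha-mannosidase that trims N-linked glycans, on the minus strand of chr10:53904785-54076609. Coordinates are those of GENCODE on GRCm38 and cover whole genes. Pou3f1 overlaps the antisense gene Gm2164, and Man1a overlaps Gm47917 and Gm16998 on the opposite strand, so reads of these partners cannot be told apart from theirs where strand was not used in counting.

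Fibcd1 was the most variable member, and the 250 bases before its RefSeq start are shown with those before the inner of 2 Mpped1 starts, since both stretches lie outside annotated exons and differ in composition. RefSeq promoter entries on GRCm38.p6 matched 4 of the 5 members. The Fibcd1 stretch is chr2:31846006-31846255, read on the minus strand, and the Mpped1 stretch is chr15:83784579-83784828, read on the plus strand, with motif matches in capitals.
Fibcd1: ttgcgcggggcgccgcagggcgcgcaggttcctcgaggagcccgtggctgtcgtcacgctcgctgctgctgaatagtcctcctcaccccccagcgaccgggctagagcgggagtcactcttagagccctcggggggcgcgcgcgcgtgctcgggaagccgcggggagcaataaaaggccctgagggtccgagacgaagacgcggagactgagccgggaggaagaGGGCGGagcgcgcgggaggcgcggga
Mpped1: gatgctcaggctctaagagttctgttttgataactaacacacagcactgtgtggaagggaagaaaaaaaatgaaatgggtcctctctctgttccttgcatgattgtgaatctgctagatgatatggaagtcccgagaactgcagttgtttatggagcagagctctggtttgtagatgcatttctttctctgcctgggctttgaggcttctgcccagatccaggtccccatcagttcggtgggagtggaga
The Fibcd1 stretch held 71.6% G and C and the Mpped1 stretch 46.8%, beside a median of 52.4% over 32851 RefSeq promoters of that length. Both strands were searched for the POU octamer ATGCAAAT, the TATA box TATAAA, the GC box GGGCGG, the CRE TGACGTCA and the NeuroD E-box CAGATG. These letters occur in 1.6%, 12.4%, 32.7%, 1.55% and 14.4% of all promoters of that length. The single match in the Fibcd1 stretch was the GC box that begins 26 bases before the start, and the Mpped1 stretch held none of the 5. Wfs1 and Man1a had 4 and 2 GC boxes, the outer Mpped1 start had 7, and Wfs1 had 1 NeuroD E-box. A match describes these letters and is not a measured site.

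Fibcd1 spanned a 20.9-fold range over the 35 libraries, from 9.66 CPM in old male 3 to 202 in old female 3. In young mice it stood at 182, 141 and 187 CPM in females and at 31.6, 10.98 and 82.4 in males. Old mice had 98.7, 147 and 202 CPM in females and 132, 151 and 9.66 in males. Treated old mice had 179, 96.7 and 15.6 CPM in females and 21.4, 113 and 71.9 in males. Low libraries thus stood beside high ones within each of these 3 groups. Littermates lay closest together, with 133, 97.3 and 179 CPM in females and 124, 111 and 155 in males. APP/PS1 mice had 18.7, 50.9 and 129 CPM in females and 73.5, 88.9 and 91.2 in males. Treated APP/PS1 mice had 142 and 152 CPM in the 2 females used and 14.2, 11.9 and 155 in males. In all 4 comparisons the groups overlapped for each of the 5 members. They did not overlap for 0.505% of genes in old against young, 0.254% in treated against untreated old, 0.85% in APP/PS1 against littermate and 0.31% in treated against untreated APP/PS1 mice.

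**Figure D1:**
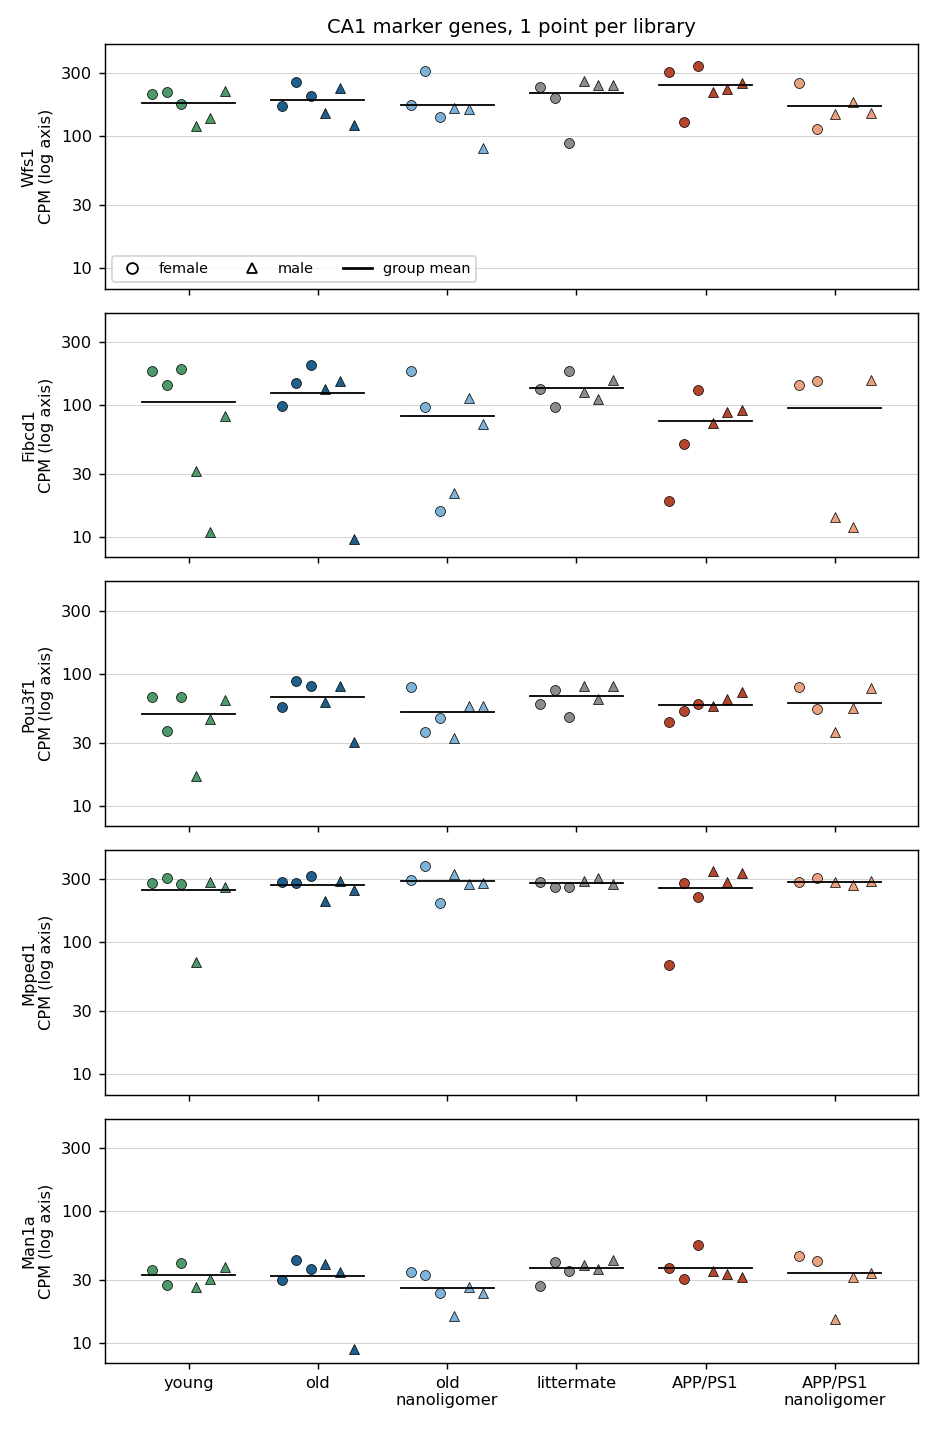
Level of each CA1 marker in CPM on a log axis for 35 libraries in 6 groups, with circles for females, triangles for males and a line at the mean of the group. Fibcd1 falls below 35 CPM in 8 libraries of 5 groups and in none of the littermates, while Mpped1 is below 197 CPM only in young male 1 and APP/PS1 female 1.

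Mpped1 was the most even member apart from 2 libraries. It had 66.7 CPM in APP/PS1 female 1 and 71.4 in young male 1, while the other 33 libraries had 197 to 377 CPM. Littermates had 262 to 307 CPM and treated APP/PS1 mice 272 to 304. Man1a ran from 8.95 CPM in old male 3 to 55.3 in APP/PS1 female 3, and Pou3f1 from 16.9 in young male 1 to 87.3 in old female 2. Wfs1 ran from 82.0 CPM in treated old male 3 to 343 in APP/PS1 female 3. The library lowest in Wfs1 was not the one lowest in any other member.

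Within group and sex, the SD of log2 CPM was 1.26 for Fibcd1, 0.51 for Pou3f1, 0.50 for Mpped1, 0.49 for Wfs1 and 0.46 for Man1a, beside a median of 0.21 over 15736 genes. Only 40 of those genes had a larger SD than Fibcd1. Among 12 other genes linked to CA1, 8 had an SD above the 95th percentile of all genes, 0.60, led by Neurod6, a transcription factor of pyramidal neurons, with 1.21. Whether those 12 genes are restricted to CA1 in this tissue was not tested. Several relatives of the members varied less: Man1b1 and Man1a2, alpha-mannosidases like Man1a, had SDs of 0.11 and 0.15, Cisd2, the second Wolfram syndrome gene, had 0.13, and Pou3f3, a POU factor, had 0.18. The POU factors Pou3f2 and Pou3f4, with 0.45 and 0.44, were closer to Pou3f1. These SDs were set side by side and not tested.

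**Figure D2:**
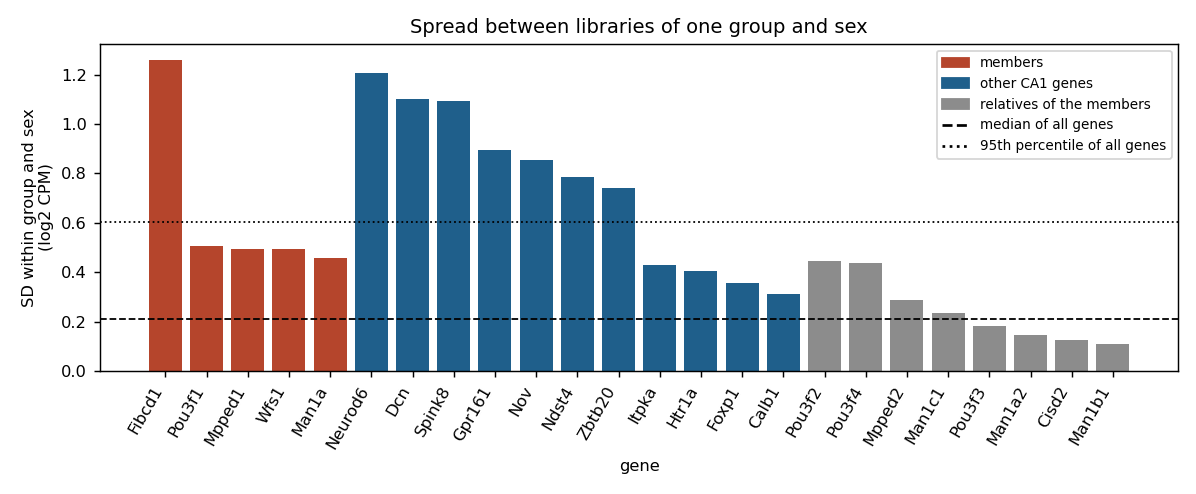
SD of log2 CPM within group and sex over 35 libraries for the 5 members, 11 of the other CA1 genes and 8 relatives, with the median (0.21) and 95th percentile (0.60) of all genes as lines. Fibcd1 stands at 1.26, the highest of the genes drawn.

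The comparison of old with young mice asks what differs between 18 and 8 months, and no member was called at an adjusted p under 0.05 (limma), where 0.0361% of 16626 genes were and 6.13% had an unadjusted p under 0.05. Fibcd1 had 123 ± 65.0 CPM in old and 106 ± 75.7 in young mice (mean ± SD, n = 6 each), a log2 difference of 0.36 ± 0.66 (SE; limma adjusted p = 0.951). The Pou3f1 level was 66.1 ± 21.3 in old and 49.2 ± 20.1 CPM in young mice, with a log2 difference of 0.50 and 95% limits of -0.22 to 1.22 (adjusted p = 0.860, limma). Differences were 0.27 for Mpped1, 0.08 for Wfs1 and -0.17 for Man1a on the log2 scale, with 95% limits that included 0. The median of the 5 members was 0.27 beside 0.00 over all genes tested, 51.4% of which were below 0. Mpped1 was at -0.06 without young male 1, Man1a at 0.16 without old male 3, and Fibcd1 at -0.02 without old male 2 and at -0.02 without young male 2. Without old male 3 Fibcd1 was at 0.86, and without young male 1 Pou3f1 was at 0.23.

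Of the 12 other CA1 genes, none was called between old and young. The smallest p values were those of Calb1, the calcium buffer calbindin, at -0.28 ± 0.13 (log2 difference ± SE, adjusted p = 0.818, limma) and Ndst4, a heparan sulfate sulfotransferase, at 0.41 ± 0.22 (adjusted p = 0.851, limma). Dentate markers were above 0 in 9 of 9 genes with a median of 0.40 and none called, and striatum markers below 0 in 8 of 8 with a median of -0.49 and none called. The choroid plexus markers, of the tissue that makes cerebrospinal fluid, had a median of -1.94 with none of 6 called and summed levels of 12.8 to 4052 CPM in young and 21.6 to 240 in old mice. Their part in the members' values was not tested.

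Treatment of old mice asks what the nanoligomer changed at 18 months, and it gave no call among the members, nor among all genes (0% of 16517 called, limma, with 7.22% at an unadjusted p under 0.05, 0 calls with edgeR and 2 with DESeq2). The Fibcd1 level was 82.9 ± 61.3 CPM in treated and 123 ± 65.0 in untreated old mice (n = 6 each), a log2 difference of -0.60 with 95% limits of -2.21 to 1.004. Pou3f1 had 51.3 ± 17.0 against 66.1 ± 21.3 CPM, or -0.35 ± 0.26 on the log2 scale (limma adjusted p = 0.745). Wfs1 stood at -0.20, Man1a at -0.18 and Mpped1 at 0.09, and the members' median was -0.20 beside 0.00 over all genes tested, 51% of which were below 0. Fibcd1 was at -1.24 without old male 3 and at -0.08 without treated old female 3, Man1a at -0.49 without old male 3 and -0.01 without old male 1, Wfs1 at -0.37 without treated old female 2 and -0.05 without treated old male 3, and Mpped1 at 0.23 without treated old female 3 and 0.0085 without old male 1. Pou3f1 was at -0.55 without old male 3 and -0.23 without treated old female 2. None of these values was called.

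Other CA1 genes again had no call in treated against untreated old mice. Ndst4 stood at -1.15 ± 0.38 (log2 difference ± SE, adjusted p = 0.678, limma). Of the relatives, Man1a2 at 0.20 and Pou3f2 at 0.64 had the smallest p values, with the same adjusted p = 0.678 from limma. Markers of neocortex were above 0 in 9 of 10 genes with a median of 0.49, and dentate markers below 0 in 9 of 9 with a median of -0.84, none of them called. Summed neocortex markers ran from 467 to 1085 CPM in treated and from 368 to 974 in untreated old mice, and their part was not tested.

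The transgene comparison asks how APP/PS1 mice differ from littermates at 4 months, and Fibcd1 had an unadjusted p under 0.05 there, which no member had in the other 3 comparisons of groups. Fibcd1 had 75.3 ± 37.7 CPM in APP/PS1 and 133 ± 29.9 in littermate mice (n = 6 each). The log2 difference was -1.01 ± 0.37 with 95% limits of -1.80 to -0.21 (adjusted p = 0.374, limma). It was not called, 10.2% of 16475 genes had an unadjusted p under 0.05, and 0.0486% were called. Counts gave -0.82 with edgeR (adjusted p = 0.446) and -0.82 with DESeq2 (adjusted p = 0.394). The groups overlapped, since APP/PS1 female 3, at 129 CPM, stood above 3 of the 6 littermates, while the other 5 APP/PS1 libraries were below every littermate.

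Markers of neighbouring regions differed between the same libraries. The striatum markers summed to 198 to 230 CPM in littermates and to 196 to 2252 in APP/PS1 mice, with 8 of 8 genes above 0, a median log2 difference of 1.02 and none called. Dentate markers were below 0 in 9 of 9 genes, with a median of -0.89 and none called. Neocortex markers were above 0 in 6 of 10 genes and below 0 in 4, with a median of 0.43 and none called. With neocortex, striatum and thalamus scores as covariates, the Fibcd1 difference was -0.27 ± 0.13 (adjusted p = 0.473, limma), and without APP/PS1 female 1 it was -0.63 ± 0.20 (adjusted p = 0.233, limma). The Wfs1 difference went from 0.24 ± 0.26 to 0.70 ± 0.20 with those covariates (adjusted p = 0.183, limma), and neither value was called. The fit with scores was added after the data had been seen, and the striatum markers themselves ran higher in APP/PS1 libraries. The part of these markers in the members' values was not tested.

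The remaining members differed less between APP/PS1 and littermate mice. Wfs1 had 246 ± 75.5 against 212 ± 64.7 CPM, and its log2 difference of 0.24 was 0.01 without littermate female 3 and 0.39 without APP/PS1 female 2. Mpped1 had 256 ± 103 against 280 ± 17.3 CPM and a log2 difference of -0.30 that was 0.05 without APP/PS1 female 1. The Pou3f1 level was 58.2 ± 10.3 against 67.8 ± 13.4 CPM, and Man1a had 37.1 ± 9.22 against 36.9 ± 5.53. Of the other CA1 genes, Htr1a, the serotonin 1A receptor, had the smallest p of the 12 with a log2 difference of -0.43 ± 0.08 (adjusted p = 0.0957, limma), followed by Dcn, which encodes the matrix proteoglycan decorin, with -1.28 ± 0.48 (adjusted p = 0.382, limma). None of the 12 was called, and 9 were below 0, beside 49.7% of all genes tested.

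**Figure D3:**
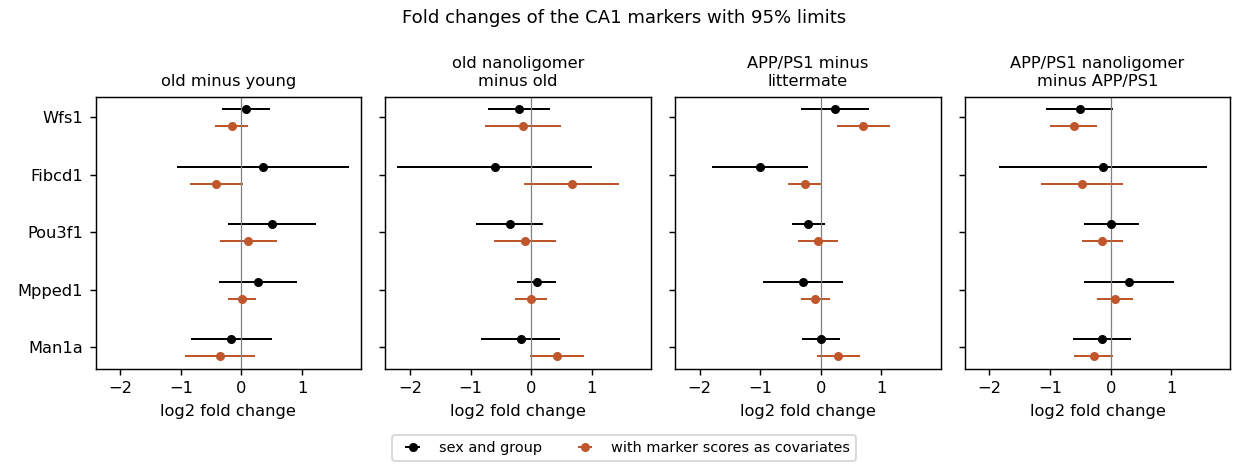
Log2 fold changes of the 5 members with 95% limits in 4 comparisons, from the fit with sex and group (black) and with neocortex, striatum and thalamus marker scores as covariates (orange). No value was called, and the limits of Fibcd1 are the widest of the members in each comparison without the scores.

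Treatment of APP/PS1 mice asks what the nanoligomer changed in the transgenic model, with 5 treated and 6 untreated libraries, and no gene was called (0% of 16124, limma, with 2.96% at an unadjusted p under 0.05, 0 calls with edgeR and 7 with DESeq2). Wfs1 had 169 ± 53.4 CPM in treated (n = 5) and 246 ± 75.5 in untreated mice (n = 6), the smallest p of the members. Its values were 254 and 113 CPM in treated females and 148, 183 and 149 in treated males, against 307, 127 and 343 in untreated females and 216, 229 and 255 in untreated males. The log2 difference was -0.51 ± 0.25 (adjusted p = 0.997, limma), and the groups overlapped. Fibcd1 was at -0.12 with limits of -1.84 to 1.59, Mpped1 at 0.30, Man1a at -0.14 and Pou3f1 at 0.02. The Fibcd1 value was above 0 with the count tools, at 0.27 with edgeR and 0.27 with DESeq2. Mpped1 was at -0.01 without APP/PS1 female 1.

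Ndst4 at -1.19 and Itpka, an inositol trisphosphate kinase of dendritic spines, at 0.28 had the smallest p values of the other CA1 genes in this comparison, both with an adjusted p of 0.997 (limma). Of the 12 genes 5 were below 0, beside 50.6% of all genes tested. Choroid plexus markers were above 0 in 6 of 6 genes with a median of 2.45, none called. They summed to 60.6 to 3837 CPM in treated and 17.2 to 57.0 in untreated mice, and their part in the members' values was not tested.

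The effect of treatment in old mice minus that in APP/PS1 mice came from 1 joint fit of 23 libraries, and no member passed (0% of 16384 genes called, 4.35% at an unadjusted p under 0.05). Differences ranged from -0.48 ± 1.17 for Fibcd1 (adjusted p = 0.978, limma) to 0.30 ± 0.37 for Wfs1 (adjusted p = 0.937, limma). No difference of an effect between the sexes was called for any member in any of the 4 comparisons, where 0% of genes were called and 4.39% (age), 4.71% (treatment in old mice), 5.1% (transgenes) and 4.52% (treatment in APP/PS1 mice) had an unadjusted p under 0.05. The smallest p of these 20 tests, under 0.05 before adjustment, was that of Fibcd1 in treated APP/PS1 mice, with an effect of 1.58 in females and -1.49 in males and a difference of -3.07 ± 1.34 (adjusted p = 0.924, limma). That difference was -1.66 with edgeR (adjusted p = 0.938) and -1.65 with DESeq2 (adjusted p = 0.994). The effect in females rests on 2 treated libraries. For the same difference between the sexes, striatum markers were above 0 in 8 of 8 genes, with a median of 2.41 and none called. Their part was not tested.

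Over 35 libraries, the mean of Fibcd1 was lower in males, with 80.5 ± 53.0 CPM (n = 18) against 127 ± 56.8 in females (n = 17), but the difference of -0.87 ± 0.42 on the log2 CPM scale was not called (adjusted p = 0.442, limma). Man1a had 30.2 ± 9.19 CPM in males and 36.3 ± 7.70 in females, a difference of -0.32 ± 0.15 (adjusted p = 0.408, limma). The differences were -0.14 for Wfs1, -0.12 for Pou3f1 and 0.02 for Mpped1. Between the sexes 0.114% of 15736 genes were called, 11.1% had an unadjusted p under 0.05, Fibcd1 and Man1a among them, and 60.8% had an estimate below 0. Neocortex markers were higher in males in 9 of 10 genes, with a median of 0.43. The medians of striatum and thalamus markers were -0.01 and -0.12. None of these markers was called, and their part in the members' values was not tested.

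The members did not form a single block across libraries. Deviations from the mean of group and sex were correlated over 35 libraries for each of the 10 pairs, with 100000 permutations within group and sex. Fibcd1 and Man1a had r = 0.72 and rho = 0.69 (adjusted permutation p = 0.0114 and 0.00535), and r was 0.63 without the 2 libraries farthest in Fibcd1. Pou3f1 and Man1a had r = 0.69 and rho = 0.72 (adjusted permutation p = 0.0021 and 0.001), with r = 0.67 without the 2 farthest libraries. Fibcd1 and Pou3f1 had r = 0.57 and rho = 0.54 (adjusted permutation p = 0.0733 and 0.0458), and r was 0.46 without the 2 farthest libraries. The other 7 pairs, which include all 4 with Wfs1 and all 4 with Mpped1, had r between 0.07 and 0.38 and did not pass for r or rho. For scale, 5% of 15735 other genes had an r above 0.64 with Fibcd1 and above 0.57 with Man1a.

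Genes closest to each member over the 35 libraries differed as well, by Pearson r of the same deviations among 13777 genes and without a test. For Fibcd1 they were Shisa6, an auxiliary protein of AMPA receptors, with 0.97, Gpr161, an orphan receptor of primary cilia, with 0.97, and Cabp7, a calcium-binding protein, with 0.97. For Mpped1 they were Cnih3, another AMPA receptor auxiliary protein, with 0.96, Fezf2, a transcription factor of deep-layer neocortical neurons, with 0.96, and Strn4 with 0.94. For Pou3f1 they were Add2, a cytoskeletal adducin, with 0.92, Camk2b, a kinase subunit of excitatory synapses, with 0.91, and Hpca, the calcium sensor hippocalcin, with 0.89. For Man1a they were Prr14l, Garem and the dopamine receptor gene Drd5 with 0.85 to 0.87, and for Wfs1 Cyp26b1, which degrades retinoic acid, with 0.86, then Zfp939 and Diap1 with 0.76 each.

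Summed markers of 7 regions or gene lists were set against the 5 members in the same way, 35 relations chosen after the values had been seen. Fibcd1 had r = -0.82 and rho = -0.74 with the striatum markers (adjusted permutation p = 0.0028 and 0.00437) and r = 0.65 with the dentate markers (rho = 0.64, adjusted permutation p = 0.0157 and 0.00846). Mpped1 had r = -0.82 and rho = -0.57 with the thalamus markers (adjusted permutation p = 0.0169 and 0.0378), and r = -0.54 and rho = -0.72 with the CA3 and CA2 markers (adjusted permutation p = 0.00595 and 0.00245). Pou3f1 had r = 0.67 with the dentate markers (rho = 0.70, adjusted permutation p = 0.0169 and 0.00846) and r = 0.68 with the other CA1 genes (rho = 0.63, adjusted permutation p = 0.0131 and 0.00846). Man1a had r = 0.55 with the dentate markers (rho = 0.53, adjusted permutation p = 0.0352 and 0.0284). Without the 2 libraries farthest in the marker list, r was -0.79 for Fibcd1 with striatum and 0.61 with dentate markers, and -0.70 for Mpped1 with thalamus and -0.48 with CA3 and CA2 markers. It was then 0.59 and 0.62 for Pou3f1 with dentate markers and other CA1 genes, and 0.43 for Man1a with dentate markers. For the thalamus markers the libraries left out were young males 1 and 2. APP/PS1 female 1, lowest in Mpped1, was kept there. Some relations passed by rho alone. These were Fibcd1 with the other CA1 genes (r = 0.53, rho = 0.68, adjusted permutation p = 0.0775 and 0.00846), Fibcd1 with the neocortex markers (r = -0.60, rho = -0.63, adjusted permutation p = 0.0775 and 0.0216) and Man1a with the other CA1 genes (r = 0.48, rho = 0.58, adjusted permutation p = 0.0523 and 0.0216), with r of 0.64, -0.73 and 0.59 in that order without the 2 farthest libraries. Mpped1 with the other CA1 genes had the highest r of the 35 relations, 0.86, and rho = 0.47. It passed by neither (adjusted permutation p = 0.0775 and 0.158), and r was 0.67 without the 2 farthest libraries. Wfs1 passed with none of the 7 lists. Members and lists of a library share its depth, and CPM values of a library sum to a fixed total.

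**Figure D4:**
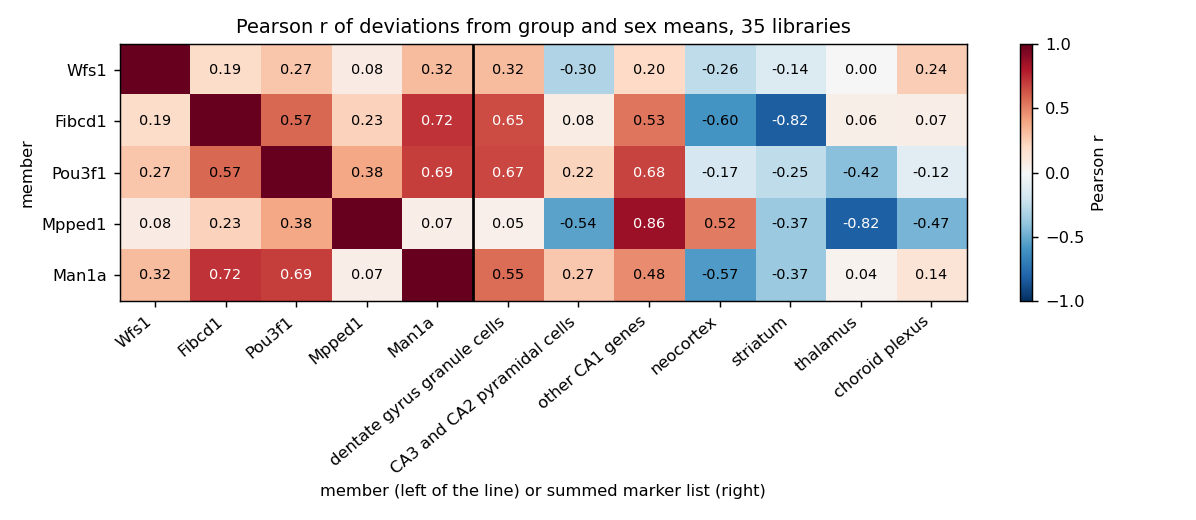
Pearson r of deviations of log2 CPM from the mean of group and sex over 35 libraries, for pairs of members (left of the line) and for members against summed marker lists (right). Fibcd1 has -0.82 with striatum, and Mpped1 has -0.82 with thalamus and 0.86 with the other CA1 genes, while Wfs1 stays between -0.30 and 0.32.

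The libraries low in Fibcd1 were not alike in these markers. Treated old female 3, APP/PS1 female 1, young male 2, treated APP/PS1 male 2 and old male 3 had 2523, 2252, 1423, 1238 and 669 CPM of striatum markers, against a highest value of 230 in littermates. Treated APP/PS1 male 1 and treated old male 1 had 14.2 and 21.4 CPM of Fibcd1 with 306 and 239 CPM of striatum markers, and their neocortex markers, 1173 and 1085 CPM, were the 2 highest of the 35 libraries. Young male 1 had 1314 CPM of thalamus markers, and it had the lowest Pou3f1 and the second lowest Mpped1 value. APP/PS1 female 1, lowest in Mpped1, had 523 CPM of thalamus markers. In that library Wfs1 stood at 307 CPM and Man1a at 37.0, so low Fibcd1 and Mpped1 did not come with low values of these members.

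**Figure D5:**
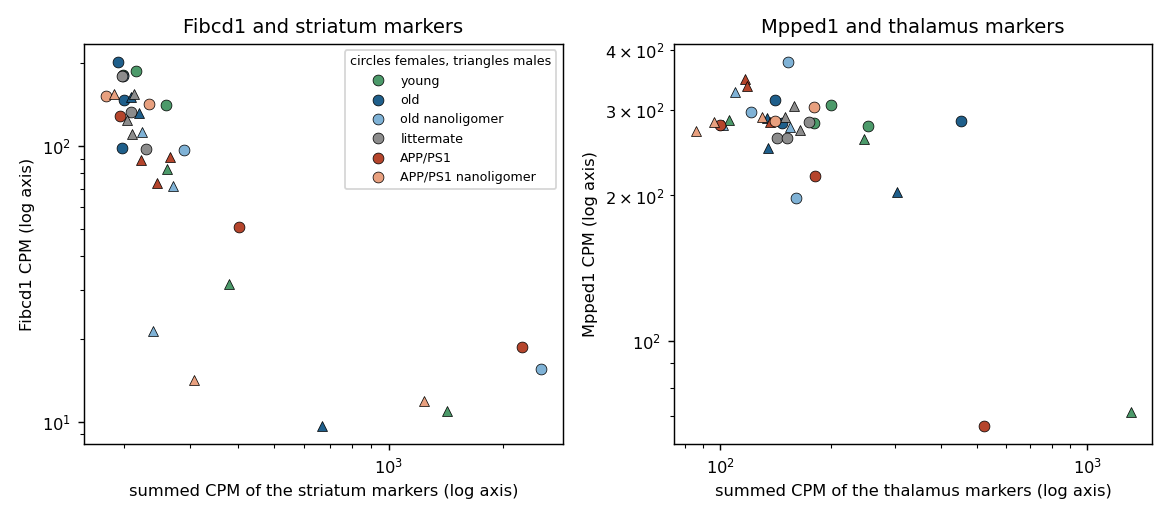
Fibcd1 against summed striatum markers and Mpped1 against summed thalamus markers, in CPM on log axes, for 35 libraries with circles for females and triangles for males. The 5 libraries with 669 CPM or more of striatum markers have 9.66 to 18.7 CPM of Fibcd1, and the 2 libraries with 523 CPM or more of thalamus markers have the lowest Mpped1. Old female 1, next with 452 CPM of thalamus markers, has 285 CPM of Mpped1.

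In each comparison the error of Fibcd1 was smaller with the neocortex, striatum and thalamus scores in the fit. The scores were added after the data had been seen. Fibcd1 had r = -0.82 with the striatum list in these libraries, so a smaller error could be foreseen. The part of the scores was not tested. The SE of Fibcd1 went from 0.66 to 0.20 for age, from 0.74 to 0.36 for treatment in old mice, from 0.37 to 0.13 for the transgenes and from 0.78 to 0.31 for treatment in APP/PS1 mice. For age it also went from 0.30 to 0.11 for Mpped1, 0.33 to 0.21 for Pou3f1, 0.18 to 0.12 for Wfs1 and 0.31 to 0.27 for Man1a. The Fibcd1 estimates became -0.42 for age and 0.67 for treatment in old mice, with the sign turned in both, and -0.47 for treatment in APP/PS1 mice, and none was called (adjusted p from 0.473 to 0.929, limma). When libraries with striatum or thalamus markers above 2 times the median were left out, 5 in the age comparison, 4 in treated old mice, 1 in the transgene comparison and 2 in treated APP/PS1 mice, Fibcd1 stood at 0.29, -0.84, -0.63 and -0.07, and no member was called.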

How the data were processed

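The deposited values are a signal: read counts per gene symbol divided by a size factor per library, in 4 tables of 12 libraries that the authors normalized apart. Per the submitters' processing notes, STAR, DESeq2 and mm10 were used. Counting tool, annotation, strand setting and versions: not given in the sources used here. Per the labels, polyadenylated RNA was sequenced on a NovaSeq from TruSeq libraries. Dividing each library by its common step gave whole reads (100% of values within 0.001 reads). The 12 libraries in 2 tables had identical reads in both. No column was left out (0), and 1 column, treated APP/PS1 male 3, was matched to a title that differs in 1 letter.

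Each comparison was fitted in its own table with limma 3.58.1 (R 4.3.3) on log2 (normalized count + 1), with sex and group, an intensity trend, a mean of at least 10 and Benjamini-Hochberg adjustment over all genes tested. A gene was called at an adjusted p under 0.05. Female 3 of the treated APP/PS1 group was left out. Sex and correlations used log2 (CPM + 0.5) of recovered reads. edgeR 4.0.16 and DESeq2 1.42.0 on recovered reads were alternatives, with other filters, pseudocounts, scalings, a replicate block and leaving out each library. The scripts were tested on simulated data. All 5 members were named in each comparison, list genes where called or by the 2 smallest p values, and the 3 genes most like each member by r. A gene that this rule names is not reported here. Ccn3 and Ccn2 were matched as Nov and Ctgf. Members, lists and tests were chosen with earlier results of these data known.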

Additional observations from a re-analysis of the deposited data

Results flagged for a closer look

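In 30 sets of a member and a group, 3 libraries stood far from the rest of their group, by a gap to the nearest library that took up most of the group's range. Chance flags about 1 in 20 such sets. Mpped1 had 71.4 CPM in young male 1, where the other 5 young libraries had 262 to 307. That library also had 1314 CPM of summed thalamus markers and 4052 of choroid plexus markers. Man1a had 8.95 CPM in old male 3, where the other 5 old libraries had 30 to 42.1, and that library also had the lowest Fibcd1 level of all, 9.66 CPM. Man1a had 55.3 CPM in APP/PS1 female 3, where the other 5 APP/PS1 libraries had 30.3 to 37.0, and that library had the highest Wfs1 level, 343 CPM. It also had the highest summed markers of the 35 libraries for microglia (659 CPM, against 238 to 302 in the other APP/PS1 libraries), astrocytes (4436 against 2014 to 2308) and oligodendrocyte precursors (706 against 365 to 492). The part of these markers was not tested.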

How the results depend on the processing

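No member was called in any comparison under any alternative run, including leaving out each library in turn (0 members called in each such fit). Of 565 fold changes of members under alternatives, 525 kept their sign and 40 turned it, all uncalled, and the lowest adjusted p was 0.0817, for Fibcd1 in the transgene comparison without APP/PS1 female 3 (limma).

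With the region scores as covariates, an alternative added after seeing the data, values that turned sign were Fibcd1 at -0.42 and Wfs1 at -0.16 for age, Fibcd1 at 0.67, Man1a at 0.43 and Mpped1 at -0.0083 for treatment in old mice, and Pou3f1 at -0.14 for treatment in APP/PS1 mice. With libraries of high striatum or thalamus markers left out, also added after seeing the data, they were Man1a at 0.11 for age, Mpped1 at 0.052 for the transgenes and Pou3f1 at -0.063 for treatment in APP/PS1 mice. Man1a in the transgene comparison was at -0.0039 with TMM and -0.0063 with library totals. In treated APP/PS1 mice Fibcd1 was at 0.27 with DESeq2 and 0.27 with edgeR, and Pou3f1 at -0.00066 with library totals. With the low-depth library kept, Mpped1 was at -1.80 and Pou3f1 at -0.073. Between the sexes, the difference of treatment in old mice for Man1a was -0.083 with DESeq2 and -0.081 with edgeR. The cause was not tested.

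Leaving out a library in turn gave, for age, -0.024 to 0.86 for Fibcd1, -0.048 to 0.19 for Wfs1, -0.31 to 0.16 for Man1a, -0.061 to 0.42 for Mpped1 and 0.23 to 0.67 for Pou3f1. For treatment in old mice it gave -1.24 to -0.08 for Fibcd1, -0.37 to -0.05 for Wfs1, -0.49 to -0.01 for Man1a, 0.0085 to 0.23 for Mpped1 and -0.55 to -0.23 for Pou3f1. For the transgenes it gave -1.27 to -0.63 for Fibcd1, -0.43 to 0.052 for Mpped1, -0.13 to 0.051 for Man1a, 0.014 to 0.39 for Wfs1 and -0.28 to -0.12 for Pou3f1. For treatment in APP/PS1 mice it gave -0.55 to 0.37 for Fibcd1, -0.22 to 0.076 for Man1a, -0.0088 to 0.43 for Mpped1, -0.15 to 0.19 for Pou3f1 and -0.71 to -0.31 for Wfs1.

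Replicate numbers were not used as pairs in the main fits. Of 23 same-number correlations, 3 were over 0.1, with a range of -0.25 to 0.29. In 11 of the 23 a library correlated best with its own number among those of its sex. These values do not settle whether the numbers mark pairs. With the replicate block, 0 members were called in each comparison, Fibcd1 in treated APP/PS1 mice was at 0.014, and calls over all genes were 1 for age, 0 for treatment in old mice, 10 for the transgenes and 0 for treatment in APP/PS1 mice.

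Calls over all genes differed with DESeq2, which gave 123, 2, 256 and 7 in that order. Both limma and edgeR gave 6, 0, 8 and 0. Region scores gave 11 for age and 51 for the transgenes. Leaving out libraries with high markers gave 31 and 21, and leaving out APP/PS1 female 3 gave 256 for the transgenes, APP/PS1 female 1 gave 21, and old female 1 gave 11 for age. Without a filter treated APP/PS1 mice had 1. For differences between the sexes DESeq2 gave 21 for age, 3 for treatment in old mice and 24 for treatment in APP/PS1 mice, against 0 with limma. With the low-depth library kept, 1 pair of members correlated past the threshold by r in place of 2, with Pou3f1 and Man1a at r = 0.29, while rho of the same 3 pairs passed with and without it (rho = 0.65 for Pou3f1 and Man1a with it kept). Every member had at least 330 reads in each library used, so that counting error was small beside the spread between libraries.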

Other observations

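Female 3 of the treated APP/PS1 group, left out of all comparisons for its 0.913 M reads, had 0 reads of Wfs1, 0 of Mpped1, 0 of Man1a and 1 of Fibcd1. A count of 0 allows up to 3 reads, or 3.28 CPM, for counting error only, whereas the lowest of the other 35 libraries had 82.0 CPM of Wfs1, 66.7 of Mpped1 and 8.95 of Man1a. At the mean CPM of those libraries, its depth would give 178 reads of Wfs1 and 248 of Mpped1. Pou3f1 had 56 reads, or 61.3 CPM, within the 16.9 to 87.3 CPM of the other libraries. Myelinating oligodendrocyte markers summed to 13.1 CPM there, against 3281 to 7975 CPM elsewhere, and the 12 other CA1 genes to 1498 CPM against 378 to 876.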
